A study of Mus musculus with 12 samples.

Results

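The translation initiation factor genes were taken as all protein-coding genes of the deposited table whose names start with Eif and a number from 1 to 6, without the eIF2 kinase genes (names starting Eif2ak), which act on an initiation factor and are not factors themselves. This rule found 51 of the 54532 genes of the table. It used no measured value, although it was chosen with earlier results of these data known. By name, 11 were eIF2 genes, 14 eIF3 genes, 16 eIF4 genes and 10 genes of other factors. RNA was sequenced from ATDC5, a mouse line described in the labels as wild-type cartilage progenitors; such cells can form cartilage-like matrix in culture. Cells were exposed for 10 min to 44 °C or 40 °C, and control cells to 37 °C, the temperature at which all were grown in high-sugar DMEM with fetal bovine serum. Each of the 3 temperatures had 4 libraries from what the series text calls biological replicates, and the time between heating and RNA extraction is not given. All cells carried the same genotype and came from 1 line, and nothing in the labels says whether replicates were grown on separate days, so p-values measure the spread between these cultures.

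Translation initiation brings a ribosome to the start codon of an mRNA. The eIF2 trimer carries the initiator tRNA as a complex with GTP, eIF2B reloads eIF2 with GTP, and phosphorylation of eIF2 during stress blocks that reloading. The large eIF3 complex holds the small ribosomal subunit, and the eIF4 factors bind the mRNA cap and unwind its leader. Heat shock is known to repress cap-dependent translation in mammalian cells, largely through changes in the activity of eIF2 and of the cap-binding factor eIF4E. The data described here measure mRNA levels and not the activity of these factors.

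Library totals lay between 16269026 and 19506705 counts, so that 3 counts, the upper limit a count of 0 allows, corresponded to 0.154 to 0.184 CPM (counts scaled by library size). That limit covers counting error only. Initiation factor genes took 1.39% ± 0.0744 of the counts in 37 °C libraries, 1.47% ± 0.0947 in 40 °C libraries and 1.58% ± 0.124 in 44 °C libraries (mean ± SD, n = 4). In these bulk samples, fewer cells of a kind and less RNA per cell cannot be told apart. The 9 markers of the labelled cell type summed to 46.3 to 90.2 CPM at 44 °C and 58.6 to 91.0 CPM at 37 °C. Of these, 7 were tested and 0 called at 44 °C against 37 °C (13.7% of all genes). Among them, the cartilage regulator Sox9 averaged 48.2 CPM at 44 °C and 54.2 CPM at 37 °C. The matrix genes Col2a1 and Acan had group means of at most 2.13 CPM, and Sox6 and Comp stayed at or under 4 counts. Sox5 and Matn3 differed by -0.56 and -0.78 on the log2 scale, and Col11a1 and Col11a2 by 0.07 and 0.02 (edgeR adjusted p = 0.0784, 0.139, 0.921 and 0.984). Markers of other cell types were read as well. The summed level of 5 smooth muscle and perivascular markers was 136 to 159 CPM at 44 °C and 201 to 231 CPM at 37 °C, with 3 of the 5 called lower, and that of 4 endothelial markers was 4.07 to 5.78 CPM at 44 °C and 2.18 to 3.30 CPM at 37 °C, with 2 of the 4 called higher. The 4 macrophage markers summed to 18.5 to 30.5 CPM at 44 °C and 26.7 to 39.8 CPM at 37 °C, nearly all of it Cd68, which differed by -0.40 on the log2 scale and was not called (edgeR adjusted p = 0.0935). The 4 fat markers summed to 1.76 to 3.03 CPM at 44 °C and 1.40 to 2.67 CPM at 37 °C, and the 3 muscle markers to at most 0.243 CPM at 44 °C and 0.182 CPM at 37 °C. Of these lists, Adgre1, Adipoq, Myod1 and Myog had 0 counts in every library. The part of these markers in the results that follow was not tested.

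The initiation factor genes varied together between libraries of the same temperature. Among the 49 tested genes, the 44 °C replicate 1 was the lowest of its group in 39, and the 44 °C replicates 2 and 4 were the highest in 25 and 18. At 40 °C, replicate 2 was the highest in 40 genes and replicate 4 the lowest in 28. At 37 °C, replicate 1 was the lowest in 38 and replicate 3 the highest in 37. The same libraries lay at the ends of the main axis of within-group variation over the tested genes other than the members, which held 29.7% of that variation. Scores are projections on this axis centered over all libraries, so they can also carry differences between temperatures. They were -1.07, 1.503, -0.166 and 1.37 for 44 °C replicates 1 to 4. The 40 °C replicates had -0.192, 1.46, -0.269 and -0.952, and the 37 °C replicates -1.47, -0.208, 0.399 and -0.408. Mean scores were 0.411 ± 1.24 for 44 °C and -0.423 ± 0.780 for 37 °C (SD over 4 libraries), with overlap. The heat map of all tested genes by library shows both the temperature difference and these columns.

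**Figure D1:**
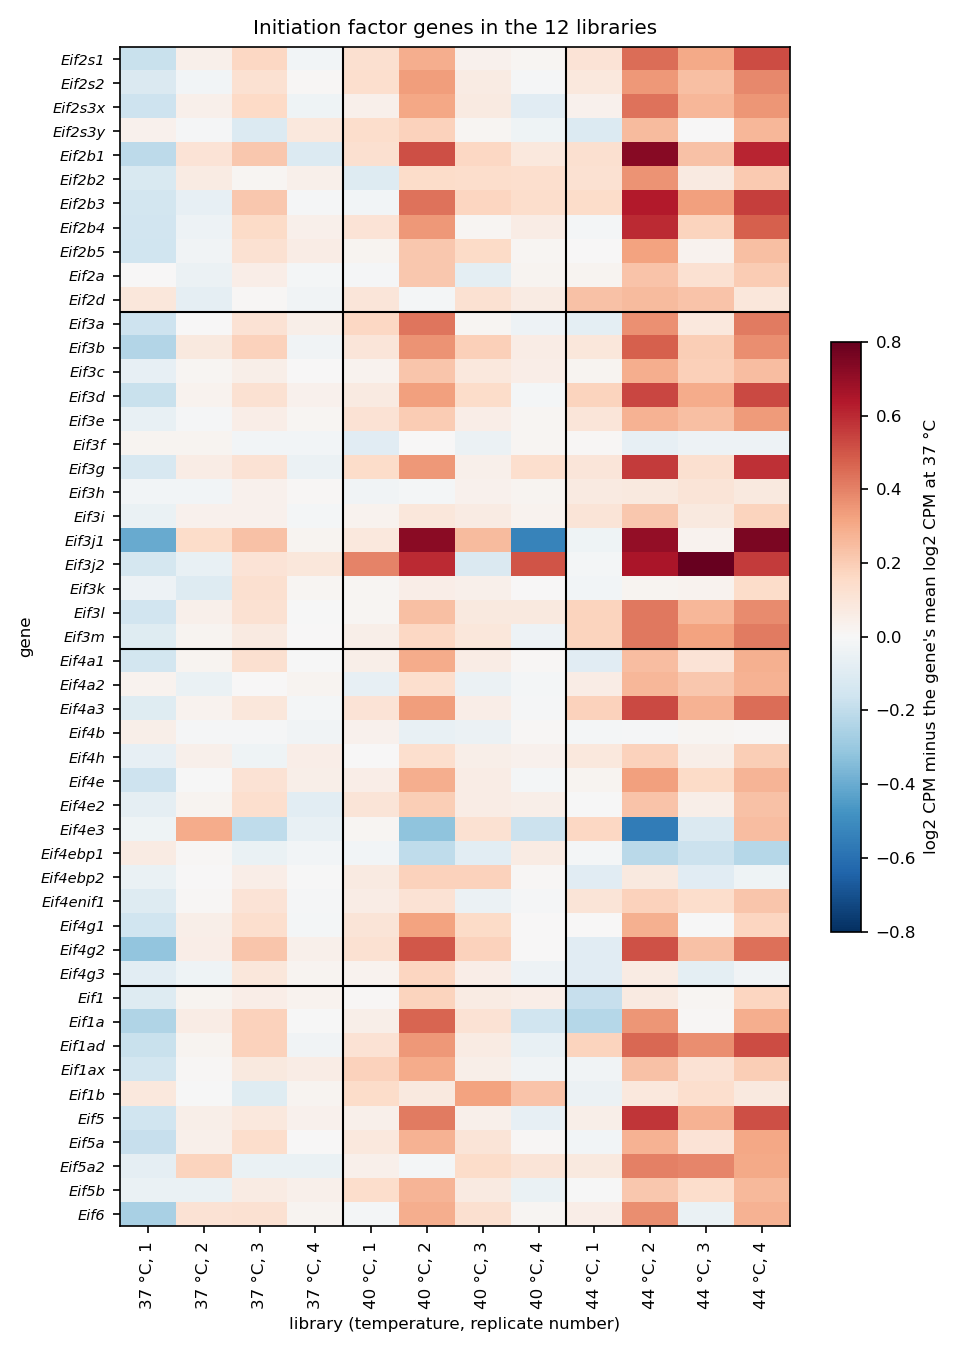
Each row is 1 of the 49 tested genes, grouped as eIF2, eIF3, eIF4 and other, and each column 1 of the 12 libraries from 37 °C at the left to 44 °C at the right; color gives log2 CPM minus the gene's mean log2 CPM at 37 °C. Most rows are red at 44 °C, and the 44 °C replicate 1, the 37 °C replicate 1 and the 40 °C replicate 2 stand out as whole columns.

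The first comparison asked how 10 min at 44 °C changed these mRNAs relative to 37 °C. At 44 °C, 15 of the 49 initiation factor genes with enough counts to test were higher and none was lower (edgeR quasi-likelihood test, Benjamini-Hochberg adjustment over all 14424 genes, adjusted p under 0.05). Over all genes, 13.7% were called in this comparison, 6.58% as higher and 7.11% as lower. Without adjustment, 28 members had a p under 0.05 as higher (15.7% of all genes) and 1, Eif4ebp1, as lower (15.2% of all genes), and DESeq2 called 22 as higher and 0 as lower, while its calls over all genes came to 2597, against 1975 in edgeR. All the changes were small: the log2 fold change ran from -0.16 to 0.54, with a median of 0.19 against -0.00034 over all genes tested, and 44 of the 49 were above 0, as were 50% of all genes. The members vary together between libraries, so these signs are not 49 independent results. The called genes were 5 of 11 of the eIF2 group, 6 of 14 of the eIF3 group, 2 of 14 tested genes of the eIF4 group and 2 of 10 of the others. The median log2 fold changes of the eIF2, eIF3 and eIF4 groups were 0.27, 0.26 and 0.13. In 10 genes the lowest 44 °C library exceeded the highest 37 °C library; over all genes, groups that did not overlap made up 17.8%, and those higher at 44 °C 8.62%. In what follows, differences are log2 fold changes ± SE, and a number alone in parentheses after a difference is its adjusted p in edgeR. The 2 members that were not tested, Eif4e1b and Eif4ebp3, are described with the eIF4 genes.

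**Figure D2:**
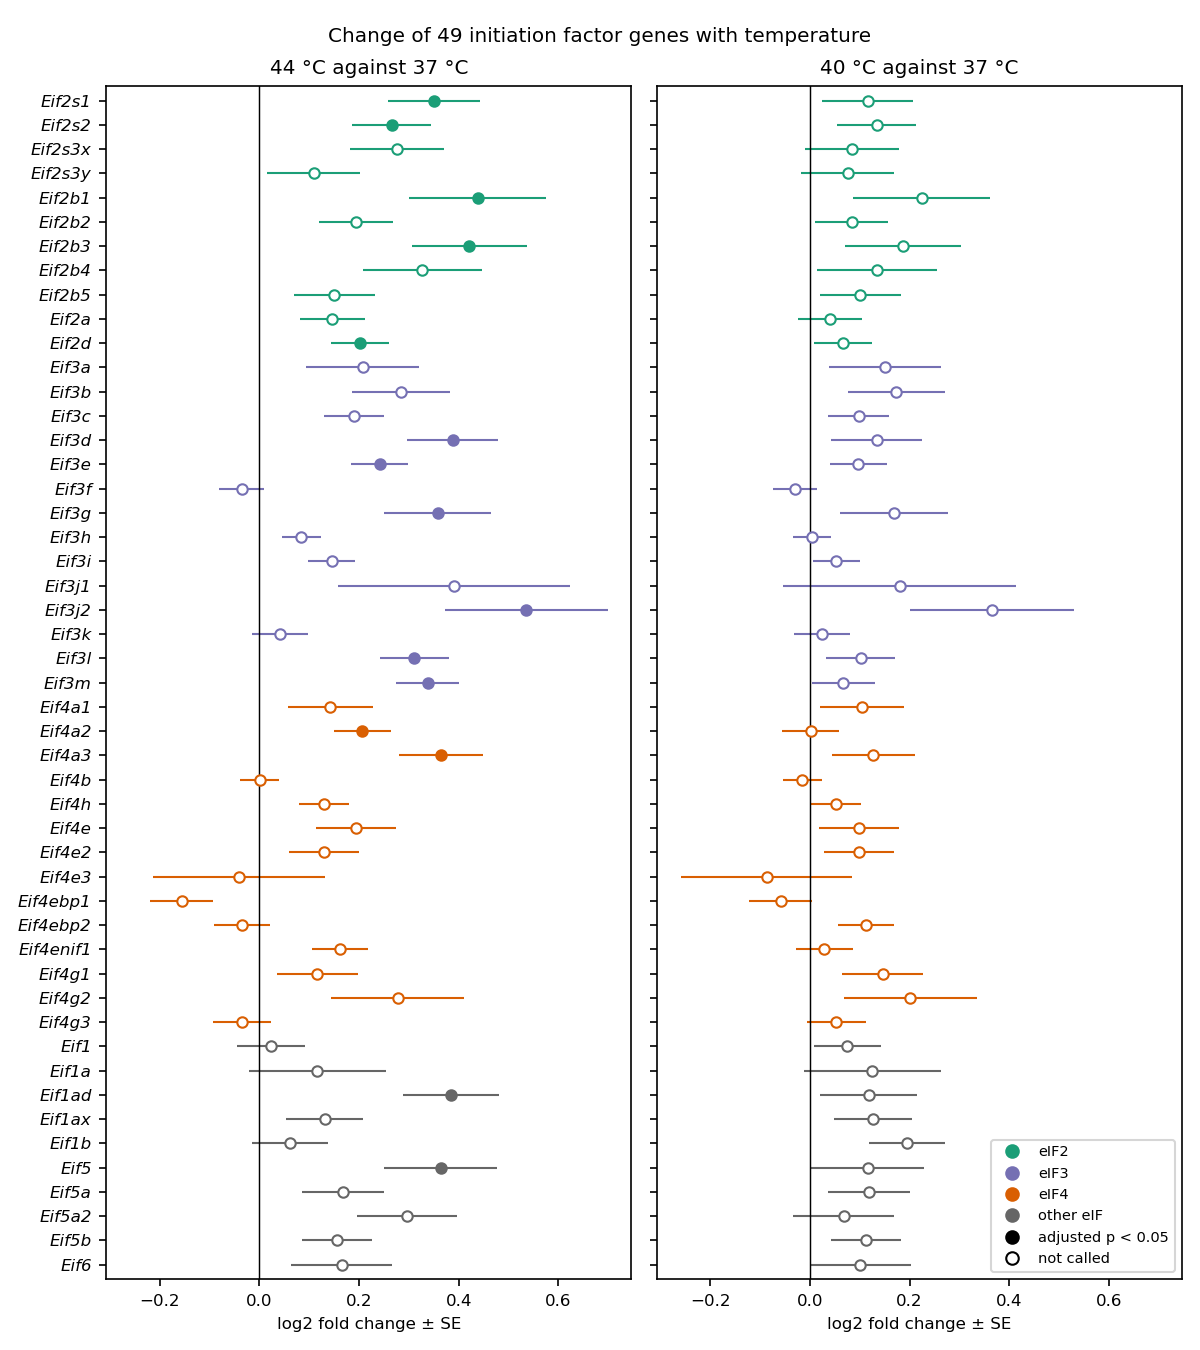
Points give the log2 fold change ± SE of each of the 49 tested genes at 44 °C (left) and at 40 °C (right), each against 37 °C; color marks the group and filled points passed an adjusted p under 0.05. At 44 °C the eIF2 and eIF3 genes center near 0.27 and 0.26 and the eIF4 genes near 0.13, and no point is filled at 40 °C.

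The number of calls depended on single libraries, over all genes as well as among the members. Without the 44 °C replicate 1 it was 27 members and 3355 of all genes, where 15 and 1975 were called with every library. It was 4 and 980 without the 44 °C replicate 2, and 5 and 1062 without the 44 °C replicate 4. At 37 °C it was 5 and 979 without replicate 1, 6 and 1156 without replicate 2, and 5 and 1063 without replicate 4. With the scores on the within-group axis as a covariate, a fit chosen after seeing the data, 19 members and 3155 of all genes were called. The median log2 fold changes were then 0.16 for eIF2, 0.14 for eIF3 and 0.04 for eIF4. The axis is made from the same deviations that form the error, so these call counts are no check of the main ones. Of the 14 called genes that the naming rule covers, Eif3m, Eif3l and Eif4a3 kept an adjusted p under 0.05 in all 21 refits, which left out each library in turn or changed the normalization, filter, covariates or tool.

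Promoters are shown for those 3 genes and, for contrast, for Eif3f and Eif4g1, which were not called. The contrast is in the E-box CACGTG, 1 of 3 motifs searched and a binding site of Myc and related factors that is known from promoters of translation genes. The motifs were chosen with earlier results of these data known. Each run covers the 250 bases before the annotated start and the 50 after it, 5′ to 3′ on the gene's strand, from RefSeq on build GRCm38.p6, with E-boxes in capitals. The stretch for Eif3m is chr2:105016978-105017277, minus strand, that for Eif3l is chr15:79074973-79075272, plus strand, and that for Eif4a3 is chr11:119299994-119300293, minus strand. The stretch for Eif3f is chr7:108934165-108934464, plus strand, and that for Eif4g1 is chr16:20672477-20672776, plus strand.
Eif3m: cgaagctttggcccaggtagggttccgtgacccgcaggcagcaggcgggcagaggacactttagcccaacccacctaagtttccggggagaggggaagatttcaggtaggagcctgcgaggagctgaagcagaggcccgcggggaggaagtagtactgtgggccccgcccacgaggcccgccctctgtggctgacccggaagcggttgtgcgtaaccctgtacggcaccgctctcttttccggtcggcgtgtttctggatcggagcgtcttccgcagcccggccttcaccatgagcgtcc
Eif3l: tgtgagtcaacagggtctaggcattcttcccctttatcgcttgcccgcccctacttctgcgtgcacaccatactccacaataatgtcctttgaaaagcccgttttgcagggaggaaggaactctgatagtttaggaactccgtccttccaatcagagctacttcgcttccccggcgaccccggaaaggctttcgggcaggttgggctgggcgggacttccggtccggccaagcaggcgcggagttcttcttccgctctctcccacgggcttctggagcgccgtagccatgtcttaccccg
Eif4a3: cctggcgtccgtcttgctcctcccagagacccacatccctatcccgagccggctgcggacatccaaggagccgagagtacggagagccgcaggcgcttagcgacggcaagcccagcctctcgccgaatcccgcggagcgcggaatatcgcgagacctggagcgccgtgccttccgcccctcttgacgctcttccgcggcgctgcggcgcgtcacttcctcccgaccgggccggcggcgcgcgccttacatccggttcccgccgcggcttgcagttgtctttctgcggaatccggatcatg
Eif3f: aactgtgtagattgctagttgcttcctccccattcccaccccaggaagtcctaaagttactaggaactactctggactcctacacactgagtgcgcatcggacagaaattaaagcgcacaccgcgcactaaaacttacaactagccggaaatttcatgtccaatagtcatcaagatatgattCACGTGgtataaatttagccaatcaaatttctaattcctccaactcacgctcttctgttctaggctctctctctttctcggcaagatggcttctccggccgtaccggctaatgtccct
Eif4g1: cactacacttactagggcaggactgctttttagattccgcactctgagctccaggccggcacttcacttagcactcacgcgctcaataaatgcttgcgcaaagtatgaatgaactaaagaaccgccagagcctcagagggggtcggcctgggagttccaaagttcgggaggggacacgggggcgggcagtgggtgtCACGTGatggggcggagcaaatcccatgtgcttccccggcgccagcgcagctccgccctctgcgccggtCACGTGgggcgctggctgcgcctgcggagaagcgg
The first E-box base lies 68 bases before the start in Eif3f, and in Eif4g1 1 box begins 54 bases before the start and the other 15 bases after it. RefSeq promoters matched 39 of the 51 members, and 10 of the 39 genes held an E-box, 25.6% against 8.09% of all 27025 genes with a promoter. The motif reads the same on both strands. It was in none of the 12 called genes with a promoter and in 10 of the 27 that were tested but not called: Eif1b, Eif3a, Eif3f, Eif3k, Eif4a1, Eif4e, Eif4g1, Eif4h, Eif5a and Eif5a2. The rest of the 27 held no E-box, so the 2 uncalled genes printed above, both from these 10, do not stand for all uncalled genes. The same split by call was not computed over all genes, so these counts have no background beside them. The split is also that of the main fit only. Without the 44 °C replicate 1, Eif4e and Eif5a, which hold an E-box, were called (edgeR adjusted p = 0.0353 and 0.0467). Eif4g1, printed above as uncalled, was called in 1 of the 21 refits. The median log2 fold change at 44 °C against 37 °C was 0.14 with the motif and 0.21 without it. A heat shock element of 3 units, searched on both strands, was in 0 of the 39 genes and in 0.662% of all 27025 genes, and the stress element TGATGNAAN of C/EBP and ATF factors was in 1 of the 39, Eif2s3x, and in 4.50% of all genes. A match is only a match of letters, and no match says only that these letters are not in this window.

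The eIF2 trimer delivers the initiator tRNA. Its alpha subunit gene Eif2s1, whose protein is the one phosphorylated under stress, had 169.6, 214, 194 and 226 CPM at 44 °C (replicates 1 to 4), against 139, 161, 176 and 154 CPM at 37 °C. The 3 highest 44 °C libraries lay above every 37 °C library, and the 44 °C replicate 1 lay below the 37 °C replicate 3. Eif2s1 rose by 0.35 ± 0.092 (log2, SE; edgeR adjusted p = 0.0227). Eif2s2, the beta subunit gene, had 559, 670.5, 624 and 690.4 CPM at 44 °C, against 489, 521, 576 and 532 CPM at 37 °C, and rose by 0.27 ± 0.080 (edgeR adjusted p = 0.0398). Again it was the 44 °C replicate 1 that fell inside the range of the 37 °C libraries. The X-linked gamma subunit gene Eif2s3x differed by 0.28 ± 0.095, a size like that of Eif2s2, but its adjusted p of 0.0663 in edgeR missed the threshold. Its Y-linked partner Eif2s3y, at 23.9 ± 3.02 CPM in 44 °C libraries and 22.2 ± 1.26 CPM in 37 °C libraries (SD, n = 4), differed by 0.11 ± 0.094 (edgeR adjusted p = 0.460). Eif2s2 and Eif2s3x have processed pseudogenes at 99.5% and 100% identity over 992 and 1350 bases, and how reads of several origins were counted is not given in the sources used here. Summed with its copy, a setting added after seeing the data, Eif2s2 had an adjusted p of 0.0382 in edgeR.

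The eIF2B complex, of 5 different subunits, exchanges GDP for GTP on eIF2. All 5 subunit genes had a positive log2 fold change at 44 °C, from 0.15 for Eif2b5 to 0.44 for Eif2b1, and 2 of the 5 passed the test. Eif2b3 had 46.4, 65.0, 52.5 and 61.6 CPM at 44 °C, against 37.9, 40.1, 48.7 and 41.7 CPM at 37 °C, and rose by 0.42 ± 0.12 (edgeR adjusted p = 0.0274). Eif2b1 had 42.9, 65.2, 46.4 and 60.1 CPM at 44 °C, against 34.0, 42.4, 45.7 and 36.4 CPM at 37 °C, and rose by 0.44 ± 0.14 (edgeR adjusted p = 0.0470). In both genes replicates 2 and 4 at 44 °C lay far above every 37 °C library, and the 44 °C replicate 1 lay among them. Eif2b5, which codes for the catalytic subunit, differed by 0.15 ± 0.082 (edgeR adjusted p = 0.228), Eif2b4 by 0.33 ± 0.12 (0.0813) and Eif2b2 by 0.19 ± 0.074 (0.0928), none past the threshold. Eif2b2 is the member of the 3 whose groups did not overlap, with 95.5, 112, 92.0 and 101 CPM at 44 °C and 80.5, 91.5, 88.5 and 90.2 CPM at 37 °C. Snx17 overlaps Eif2b4 on the other strand, with a mean of 1335 counts per library against 729 for Eif2b4. Whether counting used the strand is not given in the sources used here, so the values of Eif2b4 are uncertain.

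Eif2a and Eif2d are no subunits of eIF2; their proteins can deliver initiator tRNA by other routes, and that of Eif2d also acts in re-initiation. Eif2d had 64.1, 64.8, 63.8 and 58.1 CPM at 44 °C, against 57.9, 51.7, 54.9 and 53.5 CPM at 37 °C, with no overlap, and rose by 0.20 ± 0.059 (edgeR adjusted p = 0.0360). It was among the members that did not follow the common order of the libraries: the 44 °C replicate 1, the lowest in most genes, was level with replicates 2 and 3, and replicate 4 was the lowest. Eif2a differed by 0.15 ± 0.065 (edgeR adjusted p = 0.141). Both overlap a gene on the other strand, Rassf5 for Eif2d and Serp1 for Eif2a, and whether counting used the strand is not given in the sources used here.

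Of the factors that hold the ribosome ready for scanning, Eif1, the guard of start codon choice, had 304, 362, 348 and 388 CPM at 44 °C, against 321, 350.2, 357 and 352 CPM at 37 °C, a difference of 0.023 ± 0.068 (log2, SE; edgeR adjusted p = 0.852) with overlap. A stretch of 662 bases of Eif1 matches a transcript of Emd at 96.7%. Emd held a mean of 1293 counts per library, against 6093 for Eif1. The eIF1A genes Eif1a and Eif1ax differed by 0.12 and 0.13, and Eif1b, a close relative of Eif1, by 0.062, none past the threshold. Eif1ad codes for a protein with an eIF1A-like domain. It had 71.1, 86.5, 81.4 and 90.3 CPM at 44 °C, against 55.5, 63.9, 71.4 and 61.7 CPM at 37 °C, and rose by 0.38 ± 0.097 (edgeR adjusted p = 0.0188), the 44 °C replicate 1 lying just under the highest 37 °C library.

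Of the eIF3 genes, 6 of 14 rose at 44 °C and 13 of 14 had a positive log2 fold change. Eif3m, which codes for a subunit of the ring-like core of the complex, had the smallest p of all members. It had 203, 241, 224 and 239 CPM at 44 °C, against 168, 182, 188 and 179 CPM at 37 °C, so that the lowest heated library lay above the highest library at 37 °C. It rose by 0.34 ± 0.064 (edgeR adjusted p = 0.00383). Eif3l, another core subunit gene and among the most abundant, had 568, 671, 603 and 652 CPM at 44 °C, against 451, 515, 546 and 499 CPM at 37 °C. Its groups did not overlap either, and it rose by 0.31 ± 0.069 (edgeR adjusted p = 0.0101). Eif3d, whose human protein can itself bind the cap of some mRNAs, had 282, 362, 307 and 359.8 CPM at 44 °C, against 221, 254, 271 and 256 CPM at 37 °C. Without overlap, it rose by 0.39 ± 0.092 (edgeR adjusted p = 0.0137), and it was called in 11 of the 12 fits that left out a library, missing at 0.0507 without the 44 °C replicate 2.

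Eif3e, a core subunit gene, had 395, 448, 435 and 466 CPM at 44 °C, against 353, 366, 383 and 373 CPM at 37 °C, and rose by 0.24 ± 0.057 with no overlap (edgeR adjusted p = 0.0143). Eif3g, an RNA-binding peripheral subunit gene, had 144, 198, 147 and 201 CPM at 44 °C, against 123, 139.8, 146 and 129.8 CPM at 37 °C, and rose by 0.36 ± 0.11 (edgeR adjusted p = 0.0408). Its 44 °C values formed 2 pairs, replicates 2 and 4 above every 37 °C library and replicates 1 and 3 level with the highest of them. The sixth called gene was Eif3j2, named here after its values were seen, with 31.7, 50.3, 56.9 and 47.3 CPM at 44 °C, against 29.0, 30.7, 34.6 and 34.1 CPM at 37 °C. It had the highest log2 fold change of the members, 0.54 ± 0.16 (edgeR adjusted p = 0.0431), but it is uncertain as a gene of its own, since its transcript matches that of Eif3j1 at 99.4% over 2379 bases. Eif3j1 differed by 0.39 ± 0.23 (edgeR adjusted p = 0.271), with the widest SE of the group. Eif3m and Eif3e also have processed pseudogenes, at 98.5% and 96.0% identity, with means of 224 and 165 counts per library against 3414 and 6895 for the genes; with the copies summed, the adjusted p in edgeR was 0.00286 for Eif3m and 0.0170 for Eif3e.

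The genes of the large eIF3 subunits did not pass. Eif3a, the largest subunit's gene, differed by 0.21 ± 0.11 (edgeR adjusted p = 0.228), Eif3b by 0.28 ± 0.098 (0.0662) and Eif3c by 0.19 ± 0.061 (0.0510). Eif3c was called in 8 of the 21 refits and Eif3b in 9. Other subunit genes had lower log2 fold changes. Eif3h, the most abundant eIF3 gene per length, had 501, 505, 513 and 505 CPM at 44 °C, against 469, 471, 489.5 and 479.5 CPM at 37 °C: the groups did not overlap, yet the difference was 0.084 ± 0.039 (edgeR adjusted p = 0.155). Eif3f had 120.1, 114, 116 and 116 CPM at 44 °C, against 121, 121, 118 and 118 CPM at 37 °C, and is the eIF3 gene with a negative log2 fold change, -0.036 ± 0.044 (edgeR adjusted p = 0.621). Eif3k differed by 0.041 ± 0.056 (0.659) and Eif3i by 0.14 ± 0.047 (0.0524). Eif3i lay between 207 and 228 CPM at 44 °C, against 189 to 201 CPM at 37 °C, so its groups did not overlap although it missed the threshold. The subunits of this complex thus ranged over log2 fold changes from -0.036 to 0.54 in the same libraries. The upper end is that of Eif3j2, which is uncertain as a gene of its own. Outside Eif3j1 and Eif3j2 the highest was 0.39, for Eif3d. The genes Eif3f, Eif3h, Eif3i, Eif3k, Eif3j1 and Eif3j2 lie outside the rule for named genes and were chosen after their values were seen.

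**Figure D3:**
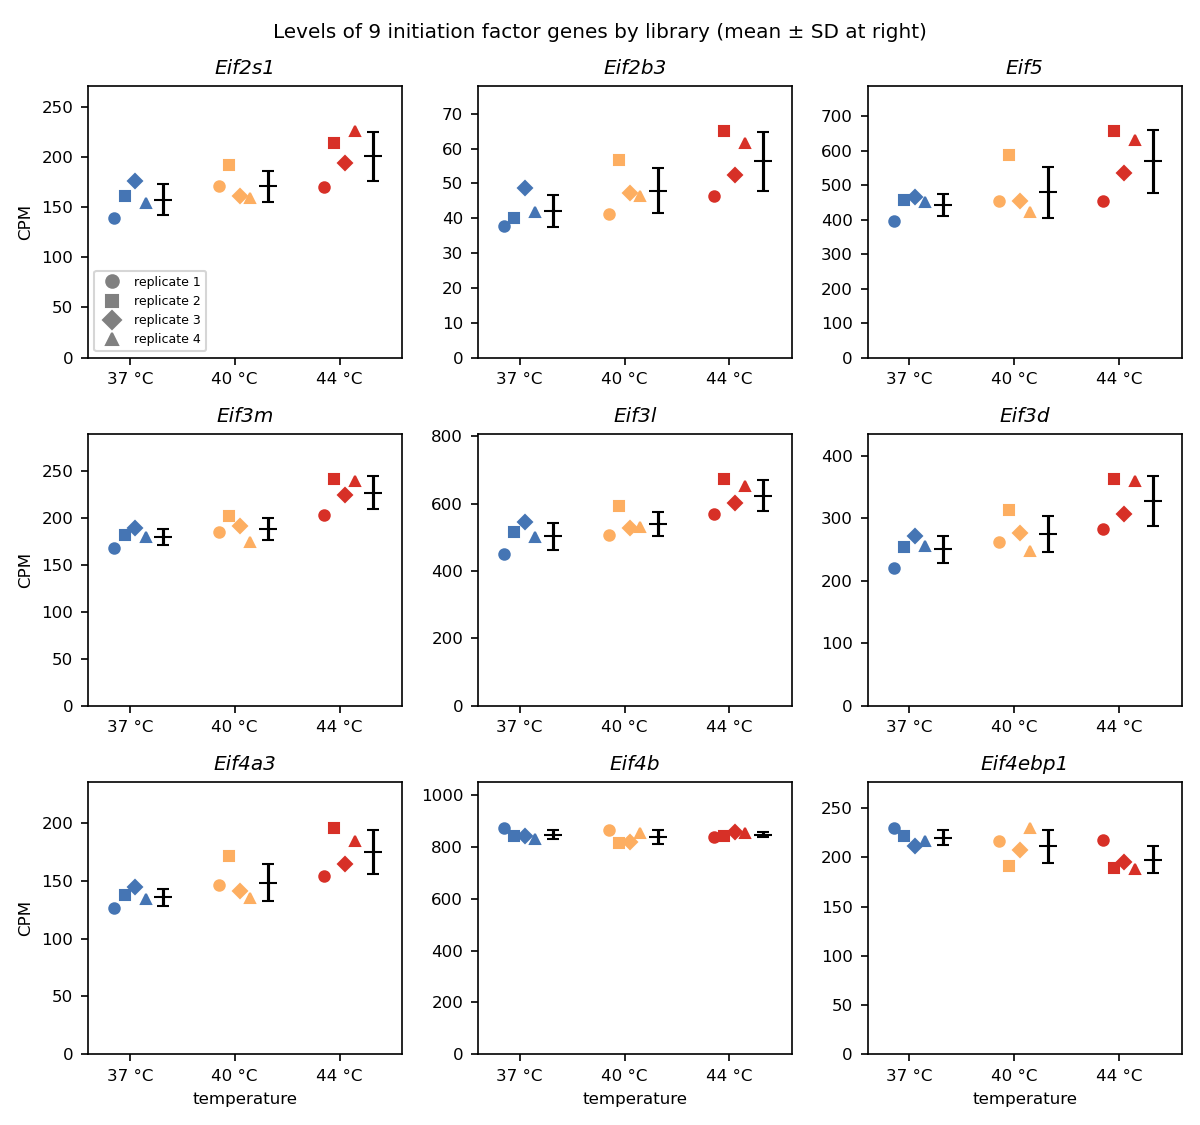
CPM of 9 genes in each library at 37 °C, 40 °C and 44 °C, with the symbol giving the replicate number and the bar beside each group the mean ± SD (n = 4). Eif3m, Eif3l, Eif3d and Eif4a3 lie higher at 44 °C without overlap with 37 °C, Eif2s1, Eif2b3 and Eif5 overlap through the 44 °C replicate 1, and Eif4b is level.

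The eIF4 genes had the lowest median log2 fold change of the 3 groups compared, and Eif4a3 and Eif4a2 rose. Eif4a3, whose protein is a helicase of the exon junction complex and not of cap-dependent initiation, had 154, 196, 164 and 185 CPM at 44 °C, against 127, 138, 144 and 134 CPM at 37 °C, with no overlap, and rose by 0.36 ± 0.084 (edgeR adjusted p = 0.0120). Eif4a2, which codes for a form of the eIF4A helicase, had 385, 443, 428 and 446 CPM at 44 °C, against 376, 356, 369 and 374 CPM at 37 °C, also with no overlap, and rose by 0.21 ± 0.057 (edgeR adjusted p = 0.0283); Rfc4 overlaps it on the other strand with a mean of 831 counts per library against 6694 for Eif4a2. The main helicase gene Eif4a1 had 924, 1168, 1059 and 1197 CPM at 44 °C, against 886, 999, 1072 and 981 CPM at 37 °C. These ranges overlap, and the difference was 0.14 ± 0.084 (edgeR adjusted p = 0.268); a processed pseudogene at 99.9% identity held a mean of 3524 counts per library against 17983 for Eif4a1.

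Eif4b, whose protein stimulates the helicase, was level. It had 838, 843, 856 and 854 CPM at 44 °C, against 874, 841, 843 and 832 CPM at 37 °C, a log2 difference of 0.00063 ± 0.039 (edgeR adjusted p = 0.994). The cap-binding factor gene Eif4e differed by 0.19 ± 0.080 (edgeR adjusted p = 0.117) and the scaffold genes Eif4g1 and Eif4g3 by 0.12 ± 0.081 and -0.035 ± 0.058 (0.352 and 0.727). Eif4g2, whose protein lacks the eIF4E-binding part of the scaffold, differed by 0.28 ± 0.13 (0.173) with a wide spread: 886, 1341, 1111 and 1278 CPM at 44 °C, against 757, 979, 1102 and 971 CPM at 37 °C.

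The eIF4E-binding proteins are repressors that compete with the scaffold for eIF4E. Eif4ebp1 had 217, 189, 195 and 188 CPM at 44 °C, against 229.9, 221, 212 and 217 CPM at 37 °C: replicates 2 to 4 at 44 °C lay below every 37 °C library and replicate 1 among them. It had the lowest log2 fold change of the members, -0.16 ± 0.063, which did not pass (edgeR adjusted p = 0.110). Eif4ebp1 was called in 1 of the 12 fits that left out a library, at 0.0275 without the 44 °C replicate 1, and in 2 of all 21 refits. Eif4ebp2 had 145, 162, 144 and 149.9 CPM at 44 °C, against 149, 154, 159.9 and 153 CPM at 37 °C, a difference of -0.034 ± 0.056 (0.721). Eif4ebp3 stayed at or under 1.43 CPM in every library and was not tested. It lies within Ankhd1, so that the origin of its few reads is uncertain. Eif4e1b, an eIF4E form known from oocytes, had 0 counts in all 12 libraries, which allows at most 0.184 CPM in the shallowest. Of the rest, Eif4h, Eif4e2, Eif4e3 and Eif4enif1, named after their values were seen, differed by 0.13, 0.13, -0.040 and 0.16, none past the threshold. Drg1 overlaps Eif4enif1 on the other strand, with a mean of 2102.5 counts per library against 1692 for Eif4enif1.

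Among the late-acting factors, Eif5, the GTPase activator of eIF2, had 455, 656, 534 and 629.7 CPM at 44 °C, against 395, 456, 467 and 451 CPM at 37 °C, and rose by 0.36 ± 0.11 (edgeR adjusted p = 0.0467). The 44 °C replicate 1 lay inside the 37 °C range and the other 3 above it, and Eif5 was called in 3 of the 12 fits that left out a library. Eif5a, which codes for a hypusine-bearing factor that acts mainly in elongation, differed by 0.17 ± 0.082 (edgeR adjusted p = 0.180). Eif5b, which codes for the GTPase that joins the ribosomal subunits, differed by 0.16 ± 0.070 (0.148), and Eif6, which codes for a factor that keeps the subunits apart, by 0.17 ± 0.10 (0.285). Eif5a2, a minor copy of Eif5a, differed by 0.30 ± 0.10 (0.0640). None of these 4 passed the threshold. Eif1a, Eif1ax, Eif1b, Eif2a, Eif2s3y, Eif4b, Eif4g3 and Eif5a2 are not covered by the naming rule and were likewise named with their values known.

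Counts can also be compared within a library, where neither depth nor scaling enters. The counts of the eIF4 genes divided by those of the eIF3 genes gave 1.375, 1.382, 1.375 and 1.357 in 44 °C replicates 1 to 4, against 1.466, 1.469, 1.472 and 1.465 at 37 °C. The ratio averaged 1.37 ± 0.0106 in 44 °C libraries and 1.47 ± 0.00326 in 37 °C libraries (SD, n = 4), a change of -6.53%, and the values at 40 °C lay between 1.450 and 1.465, above every 44 °C library. Set against eIF2 genes, the eIF4 counts averaged 3.61 ± 0.0597 at 44 °C and 3.95 ± 0.0515 at 37 °C, again with no overlap. The ratio of eIF2 to eIF3 counts was 0.380 ± 0.00552 at 44 °C and 0.371 ± 0.00539 at 37 °C, and these groups overlapped. Sums weigh abundant genes most. With Eif4b, Eif4ebp1 and Eif4ebp2 left out, a choice made after seeing their values, the ratio of eIF4 to eIF3 counts was 1.105 ± 0.0237 at 44 °C and 1.148 ± 0.0262 at 37 °C, and the groups overlapped. With each gene weighted equally, the mean log2 CPM of the eIF4 genes minus that of the eIF3 genes was -0.0014 ± 0.066 at 44 °C and 0.14 ± 0.033 at 37 °C, with no overlap, while 44 °C and 40 °C overlapped. No test is given for these ratios, since they are scores over chosen genes.

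**Figure D4:**
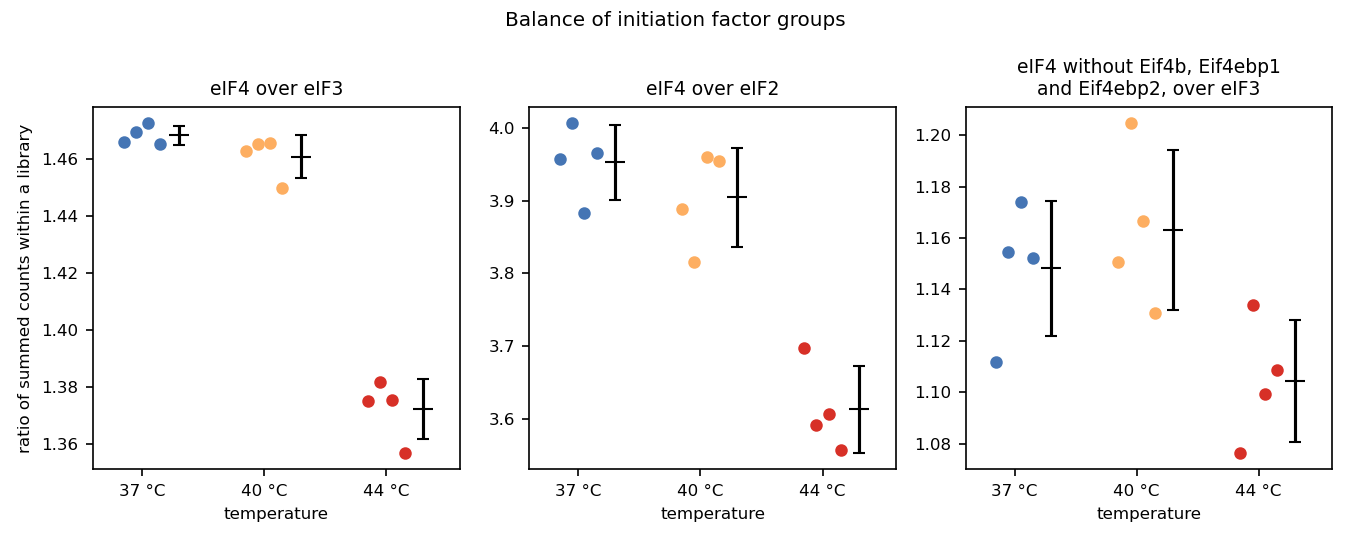
Ratio of summed counts within each library at 37 °C, 40 °C and 44 °C; points are libraries and bars mean ± SD (n = 4), and the vertical axes do not start at 0. The ratios of eIF4 to eIF3 and to eIF2 lie lower at 44 °C without overlap, and the third panel, without 3 eIF4 genes, overlaps.

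At 40 °C none of the 49 initiation factor genes was called against 37 °C, and none of all 14424 genes was (0%) by edgeR or DESeq2. Without adjustment, 2 members had a p under 0.05 in edgeR, Eif1b and Eif3j2, against 5.21% of all genes. The log2 fold changes were above 0 in 45 of the 49 members (49.7% of all genes), with a median of 0.10 against -0.00096 over all genes, and the groups overlapped in all 49 tested members (3.83% of all genes did not overlap). The members vary together between libraries, so this count of signs is not one of independent genes. The 40 °C replicate 2 was the highest of its group in 40 members, and the 37 °C replicate 1 the lowest in 38. The medians were 0.10, 0.10 and 0.08 for eIF2, eIF3 and eIF4. Eif3m, for example, had 185, 201, 191 and 174 CPM at 40 °C, against 168, 182, 188 and 179 CPM at 37 °C, a difference of 0.067 ± 0.064 (edgeR adjusted p = 0.837). Eif2s1 had 171, 192, 161 and 159 CPM at 40 °C, against 139, 161, 176 and 154 CPM at 37 °C, a difference of 0.12 ± 0.092 (0.823).

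Between 44 °C and 40 °C, 1 of the 49 members was called, against 5.02% of all genes (1.88% as higher, 3.14% as lower). It was Eif3m, with 203, 241, 224 and 239 CPM at 44 °C, against 185, 201, 191 and 174 CPM at 40 °C, and it rose by 0.27 ± 0.064 (edgeR adjusted p = 0.0232) with no overlap. It was called in 6 of the 12 fits that left out a library and lost at 0.0758 without the 40 °C replicate 1, 0.0572 without the 40 °C replicate 3, 0.0826 without the 40 °C replicate 4, 0.0806 without the 44 °C replicate 2, 0.0525 without the 44 °C replicate 3 and 0.0774 without the 44 °C replicate 4. Eif4a2 came closest among the rest, with 385, 443, 428 and 446 CPM at 44 °C, against 351, 404, 357 and 364 CPM at 40 °C, and a difference of 0.21 ± 0.057 (0.0531). The median log2 differences were 0.14, 0.13 and 0.04 for eIF2, eIF3 and eIF4 and 0.09 over the members, against 0.01 over all genes. Eif4ebp2, at 145, 162, 144 and 149.9 CPM at 44 °C and 161, 174, 175 and 155 CPM at 40 °C, had the lowest, -0.15 ± 0.056 (0.152). These comparisons share samples: both heated groups are set against the same 37 °C libraries. Fitted group means ran in the order 37, 40 and 44 °C in 39 of the 49 members, against 27.2% of all genes tested, and in the reverse order in 2, against 25.3% of all genes. Since the members vary together between libraries, these are not independent results either. A joint test over the 3 temperatures called 7 members, Eif1ad, Eif3d, Eif3e, Eif3l, Eif3m, Eif4a2 and Eif4a3, against 8.21% of all genes.

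Levels differed far more between genes than between temperatures. Per length of gene model, Eif5a was the most abundant member, at 532 ± 49.0 CPM per kb at 37 °C, 577 ± 47.2 in 40 °C libraries and 597 ± 62.7 in 44 °C libraries (SD, n = 4). Eif3h followed with 296 ± 5.80 CPM per kb at 37 °C, Eif4a1 with 227 ± 17.6, Eif4b with 189.7 ± 4.16 and Eif1 with 164 ± 7.74. Eif3h and Eif4a1 differed beyond their spread, as did Eif4a1 and Eif4b. The subunits of eIF3, which share a complex, spanned 11.2 to 296 CPM per kb at 37 °C, a range of 26.4-fold, and the eIF2 group spanned 5.33 to 78.3. The low end for eIF3 is uncertain. It was set by Eif3j1 at 11.2 and Eif3j2 at 13.5, whose transcripts match at 99.4%, so that their reads may not be told apart. Of the other eIF3 genes, Eif3f was the lowest, at 41.4 CPM per kb. Within the eIF2 trimer the beta subunit gene Eif2s2 stood at 78.3 ± 5.33 CPM per kb at 37 °C, Eif2s3x at 65.4 ± 6.04 and the alpha subunit gene Eif2s1 at 31.8 ± 3.12. Of the eIF2B genes, Eif2b3 at 6.46 ± 0.712 was the lowest and Eif2b2 at 46.5 ± 2.61 the highest. The repressor gene Eif4ebp1, at 100.2 ± 3.48, exceeded Eif4e, at 45.7 ± 3.70, on this scale. Without scaling by length the order was reversed, with 1.25 ± 0.143 times as many counts for Eif4e as for Eif4ebp1 at 37 °C. Among closely related genes, 1 copy took most counts in every library: Eif5a had 107 ± 8.44 times the counts of Eif5a2 at 44 °C and 117 ± 12.8 times at 37 °C, and Eif2s3x had 12.6 ± 0.637 times those of Eif2s3y at 44 °C and 11.3 ± 1.64 times at 37 °C. Both ratios overlapped between the temperatures.

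**Figure D5:**
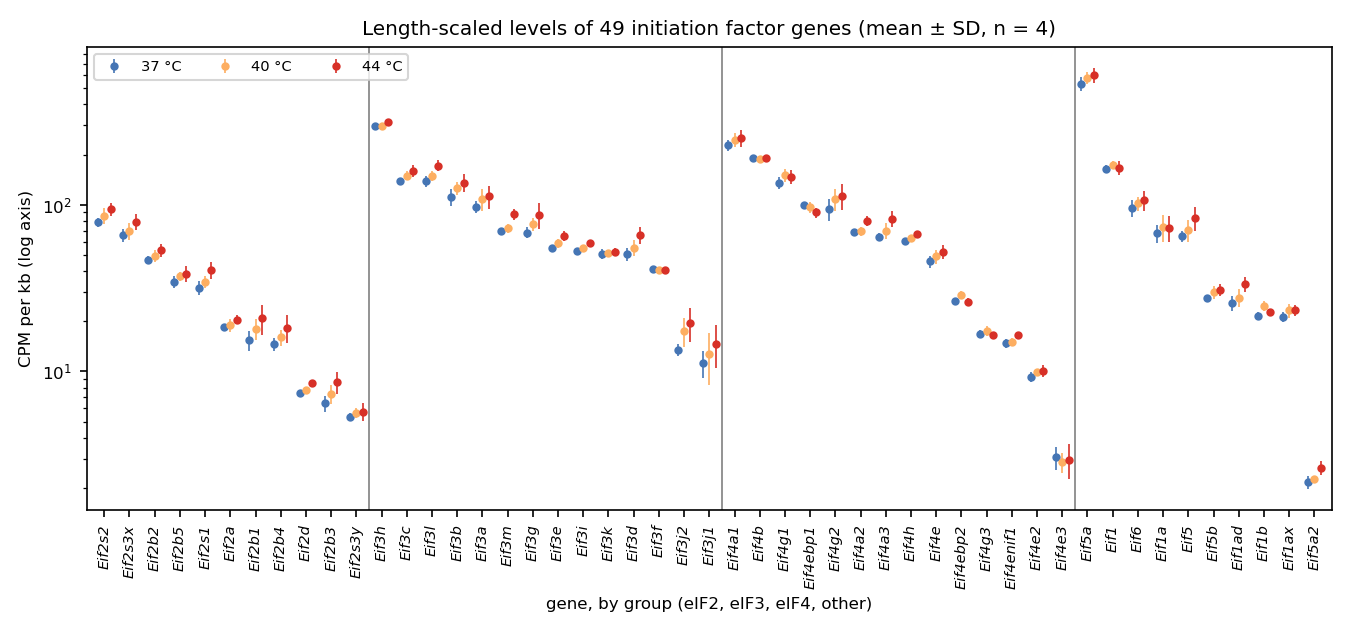
Mean ± SD (n = 4) of CPM per kb of gene model at 37 °C, 40 °C and 44 °C for the 49 tested genes, on a log axis, sorted within the eIF2, eIF3, eIF4 and other groups by the level at 37 °C. Eif5a has the highest level and Eif5a2 the lowest, and the 3 temperatures lie close together within each gene.

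Of 29 other genes of protein synthesis and its control, 4 were called higher at 44 °C against 37 °C and 0 lower, with a median log2 fold change of 0.05. Over all genes, 13.7% were called in this comparison, 6.58% as higher and 7.11% as lower. The genes below are thus single results and not a result about the list. Pabpc1, which codes for the main cytoplasmic poly(A)-binding protein, a partner of eIF4G, averaged 2807 ± 120.0 CPM at 44 °C and 2323 ± 82.6 CPM at 37 °C (SD, 4 libraries) and rose by 0.27 ± 0.047 (edgeR adjusted p = 0.00235). It was also the gene of this list that was called higher at 44 °C against 40 °C, by 0.24 ± 0.047 (0.00931). In that comparison 1.88% of all genes were called higher and 3.14% lower. Abce1, a ribosome recycling gene, rose by 0.40 ± 0.12 (0.0413), and the elongation genes Eef1d and Eef1e1 rose by 0.33 ± 0.080 (0.0156) and 0.40 ± 0.12 (0.0412). The abundant elongation genes Eef1a1 and Eef2 differed by 0.065 ± 0.039 (0.277) and 0.033 ± 0.042 (0.631), short of the threshold. Of 6 eIF2 kinase and phosphatase regulator genes, 0 passed at 44 °C against 37 °C and 1 at 44 °C against 40 °C: Eif2ak2, the gene of the kinase PKR, averaged 105 ± 12.6 CPM at 44 °C and 129 ± 8.002 CPM at 40 °C and fell, with a log2 fold change of -0.30 ± 0.077 (0.0394). Ppp1r15a, which codes for the stress-inducible phosphatase regulator that removes the phosphate from eIF2, averaged 55.0 ± 7.54 CPM at 44 °C and 52.9 ± 5.92 CPM at 37 °C, a log2 difference of 0.059 ± 0.10 (0.740). At 40 °C against 37 °C, 0 of the 29 passed, and 0% of all genes did.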

How the data were processed

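Per the labels' protocols, RNA was extracted with a TRIzol kit, and libraries came from poly(A)-selected, fragmented RNA with random priming. The authors deposited raw counts per gene for each of the 12 libraries, and the gene length in the deposited table was used for CPM per kb. Per the submitters' processing notes, the tools included featureCounts 1.5.0-p3, HISAT2 2.0.5, fastp and StringTie 1.3.3b, and the build was mm10; use of the strand and handling of reads with several origins are not given in the sources used here.

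Counts were analysed with edgeR 4.0.16 in R 4.3.3: filterByExpr (minimum count 10, minimum total 15; 14424 genes kept), TMM scaling, 1 mean per temperature over all 12 libraries, and two-sided quasi-likelihood F-tests with Benjamini-Hochberg adjustment over all genes tested, called under 0.05. The SE was obtained from the fold change and its F statistic. CPM values are TMM-scaled. In simulated counts with 100 genes changed by 0.5 and 100 by 1 on the log2 scale, 51 and 79 were recovered in the comparison of 44 °C with 37 °C. No library repeated another: a chi-square per gene averaged 2.88 to 21.4 within groups.

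Members, lists, motifs and the naming rule (every called member, up to 12 in each direction by smallest adjusted p, plus 23 core factors) were chosen with earlier results of these data known. Other genes are said to be named after their values were seen. Alternatives were DESeq2 1.42.0, other scalings, no filter, a threshold of 0.01, 2 temperatures alone, a replicate block, axis covariates, near copies summed (BLAST+ 2.17.0, at least 95% identity over 400 bases) and leaving out each library.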

Additional observations from a re-analysis of the deposited data

Results flagged for a closer look

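In 147 groups of 4 libraries, 1 for each tested gene and temperature, the library furthest out was compared with the spread of the other 3 by Dixon's ratio (gap to the nearest value over the whole range). Chance flags about 1 in 20 groups, and 5 of the 147 were flagged. Eif2b1 had 56.2 CPM in the 40 °C replicate 2, above the others at 41.8 to 44.1 CPM. Eif4a1 had 1207 CPM in the same library, above the others at 988 to 1026 CPM, and this library was the highest of its group in 40 of the 49 genes. Eif2b2 had 81.7 CPM in the 40 °C replicate 1, below the others at 96.2 to 97.1 CPM. Eif2d had 58.1 CPM in the 44 °C replicate 4, below the others at 63.8 to 64.8 CPM but above every 37 °C library. Eif5a2 had 12.3 CPM in the 37 °C replicate 2, above the others at 10.3 to 10.4 CPM.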

How the results depend on the processing

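For 44 °C against 37 °C, 15 members and 1975 genes were called. At a threshold of 0.01 these were 1 and 630, with the centred within-group axis as covariate 40 (39 higher, 1 lower) and 5033, and with projected scores, added after seeing the data, 19 and 3155, with medians of 0.14 for eIF3 and 0.042 for eIF4. The axis is made from the same deviations that form the error, so p-values with it are smaller by construction. Leaving out each library gave 4 to 27 members and 979 to 3355 genes. For 40 °C against 37 °C, where 0 were called, the axis gave 11 members and 596 genes, projected scores 11 genes, no filter 13 genes and leaving out a library 0 to 1 gene. For 44 °C against 40 °C, 1 member and 724 genes were called. The member count was 3 with library totals, 2 with no filter, 2 with DESeq2, 0 at 0.01, 0 with 2 temperatures alone, 21 with the axis, 13 with projected scores and 0 to 8 leaving out a library; the gene counts were 270 at 0.01, 334 with 2 temperatures alone, 3217 with the axis, 2543 with projected scores, 1180 with DESeq2 and 394 to 1265 leaving out a library. Replicate numbers were not taken as pairing the libraries, since not every correlation of same-number deviations exceeded 0.1: these were 0.366, 0.104, -0.151 and -0.00757 at 44 °C and 37 °C, -0.0404 to 0.0729 at 40 °C and 37 °C, and 0.0524, 0.319, 0.0623 and -0.207 at 44 °C and 40 °C. Not every library matched its own number best (6 of 12 did). The count to be expected without pairing was not computed, and a rule that asks it of every correlation is strict. Neither the correlations nor this count thus decide against pairing. With the number as a replicate block, 20 members and 2557 genes were called at 44 °C against 37 °C, 3 and 901 at 44 °C against 40 °C, and 12 and 1656 in the joint test, where 7 and 1184 were called without it. The cause of these shifts was not tested. Of the values of single named genes under the alternatives, 1485 kept their side of the threshold, 80 gained and 73 lost a call. The sign changed in 26 of the 1638, none of them called with either sign, and their log2 values were at most 0.076 in size. With 4 libraries a group, changes of the sizes seen here can be missed.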

Other observations

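The share that each gene takes of its own group's counts was compared between temperatures; a share also falls when the counts of other members of the group rise. At 44 °C against 37 °C this share did not overlap between the temperatures in 11 of the 49 tested members, 7 higher and 4 lower, and at 40 °C against 37 °C in 0. Such shares were not computed for other genes, so whether these counts are unusual cannot be told. For levels, which are another measure, 17.8% of all genes did not overlap at 44 °C against 37 °C, and 3.83% at 40 °C against 37 °C. Eif4a3 made up 2.83% ± 0.0807 of the eIF4 counts in 44 °C libraries and 2.41% ± 0.0246 in 37 °C libraries (SD, n = 4). Eif3m made up 5.05% ± 0.0896 of the eIF3 counts at 44 °C and 4.68% ± 0.0491 at 37 °C. Among the lower ones were Eif4ebp2, at 2.44% ± 0.129 of eIF4 counts at 44 °C and 2.74% ± 0.0862 at 37 °C, and the start codon factor gene Eif1, at 10.4% ± 0.410 of the other factors' counts at 44 °C and 11.6% ± 0.412 at 37 °C. The levels of Eif4ebp2 and Eif1 themselves did not pass, with log2 fold changes of -0.034 and 0.023 (edgeR adjusted p = 0.721 and 0.852). The examples were picked with their values in view.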
